A study of Mus musculus with 12 samples.

Results

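The genes described here encode the nuclear subunits of oxidative phosphorylation, measured in mouse sciatic nerve that was either intact or cut 5 days earlier. They were taken by symbol from the raw count table: names beginning Nduf (complex I), Sdha to Sdhd (complex II), Uqcr (complex III), Cox4 to Cox8 (complex IV) or Atp5 (complex V), with a mean raw count of at least 10 over the 12 libraries. The pattern matched 86 rows, of which 1 pseudogene symbol was set aside and 2 (Cox6a2 and Cox8c) fell below the minimum, with mean counts of 4.83 and 0.33. That left 83 members of 38087 gene models: 37 in complex I, 4 in complex II, 8 in complex III, 16 in complex IV and 18 in complex V. All 83 passed the low-count filter and were among the 22384 models tested.

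Oxidative phosphorylation passes electrons from NADH (through complex I) and succinate (through complex II) by way of complexes III and IV to oxygen, and complex V uses the proton gradient so built to make ATP. The subunits are encoded by many separate nuclear genes together with a few mitochondrial ones, and all complexes but the second need both sets. In peripheral nerve this machinery serves axons and Schwann cells, and the distal part of a cut nerve loses its axons while Schwann cells give up myelin and macrophages enter.

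RNA was measured in 4 groups of 3 libraries: injured nerve of dKO mice, injured nerve of control mice, intact nerve of dKO mice and intact nerve of control mice. The dKO mice had the genotype Dhh-Cre+:Tfebflox/flox;Tfe3KO, which by its label means a Tfe3 knockout not limited by Cre and a Tfeb deletion only where Dhh-Cre acts, in the Schwann cell lineage. Control mice were Dhh-Cre-:Tfebflox/flox;Tfe3+, so they carried both floxed Tfeb alleles but no Cre. Injured nerve was the stump distal to the cut, less about a millimetre at the wound, and intact nerve was the uncut one of the other side, stripped of its epineurium, a step the labels give for intact nerve alone. The labels give no age or sex and do not say whether a library is 1 mouse, so p-values measure the spread between libraries.

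Library totals ran from 15430999 to 35845371 counts, and the members held 0.459% to 0.738% of them. The median member had a mean count of 1340, and 80 of 83 averaged at least 100. Levels are given as CPM, the counts of a gene scaled to a library's total after TMM scaling. Tfe3 had 49.5 to 53.8 CPM in dKO and 55.0 to 67.6 CPM in control nerve at 5 days, and 43.3 to 47.4 CPM in dKO and 56.7 to 62.1 CPM in control nerve when intact. Tfeb had 14.2, 19.6 and 29.8 CPM in dKO and 24.0, 18.2 and 18.4 CPM in control nerve at 5 days, and 17.0, 19.5 and 17.3 CPM in dKO and 22.6, 23.9 and 26.9 CPM in control nerve when intact. Both genes thus kept counts in every dKO library, and neither passed the test between genotypes: Tfe3 had values of -0.24 (adjusted p = 0.126) at 5 days and -0.39 (adjusted p = 0.841) in intact nerve, and Tfeb had 0.06 (adjusted p = 0.883) and -0.45 (adjusted p = 0.856). The library labelled dKO replicate 4 at 5 days thus had the highest Tfeb level of all 12, and whole-gene counts over a deleted allele do not check the deletion. At equal depth, 174 to 380 of 1250 olfactory receptor models had reads in the 3 dKO libraries and control replicate 4 at 5 days, against 53 to 76 in the other 8 libraries. These 4 libraries are called the second library set, and the labels name no batch for it. Control replicate 1 at 5 days also stood apart, with 335 CPM of Xist, against at most 0.695 CPM elsewhere, and 13500 CPM summed over 5 red cell genes.

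After injury some subunit genes rose and fewer fell, with the highest medians in complexes III and IV, while complex I as a whole had a median near that of all models. The lead of complexes III and IV over complexes II and V was small in dKO nerve and larger in control nerve. In dKO nerve 21 members rose and 8 fell, and in control nerve 29 rose and 6 fell (edgeR's quasi-likelihood test, Benjamini-Hochberg adjusted p under 0.05 over all 22384 models). Of all tested models, 22.0% rose and 22.6% fell in dKO nerve, and 24.4% rose and 22.4% fell in control nerve. Rising members made up 25.3% of the 83 in dKO nerve, near that background, and 34.9% in control nerve, above it. Falling members made up 9.64% in dKO and 7.23% in control nerve, both below it. The median member changed by 0.16 (log2) in dKO and 0.20 in control nerve, beside medians over all tested models of 0.05 and 0.09. The quartiles of the members lay at -0.07 and 0.36 in dKO and at -0.07 and 0.50 in control nerve, against -0.47 and 0.69 in dKO and -0.51 and 0.70 in control nerve for all models.

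The same direction was called in both genotypes for 17 rising members, which are 81.0% of those rising in dKO and 58.6% of those rising in control nerve. The 4 members that fell in both were Atp5o, Atp5s, Atp5sl and Sdha, 50.0% of the dKO and 66.7% of the control falls. No member was called in opposite directions, and 40 of 83 were called in neither. The injured dKO libraries all lie in the second library set and the intact ones outside it. A term for this set can be estimated only from control replicate 4 against control replicates 1 and 2 at 5 days. It therefore rests on control replicate 4 alone on the side of the set. On the other side stands control replicate 1, the library with high Xist and red cell counts. Calls kept or lost under this term carry that limit. A fit with a term for this set, estimated from the control libraries at 5 days, left 11 members higher and 0 lower in dKO nerve (9.59% and 9.62% of all models) and 34 higher and 4 lower in control nerve (23.8% and 21.1%). Of the 29 dKO calls 7 remained, those of Uqcrh, Ndufc2, Cox5a, Uqcrq, Atp5l2, Uqcrfs1 and Ndufa1, and of the 35 control calls 33 remained. Under upper-quartile scaling the median of all models in dKO nerve moved to 0.19 and that of the members to 0.30, and the counts became 38 higher and 3 lower, with 27.9% and 18.1% of all models called.

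**Figure D1:**
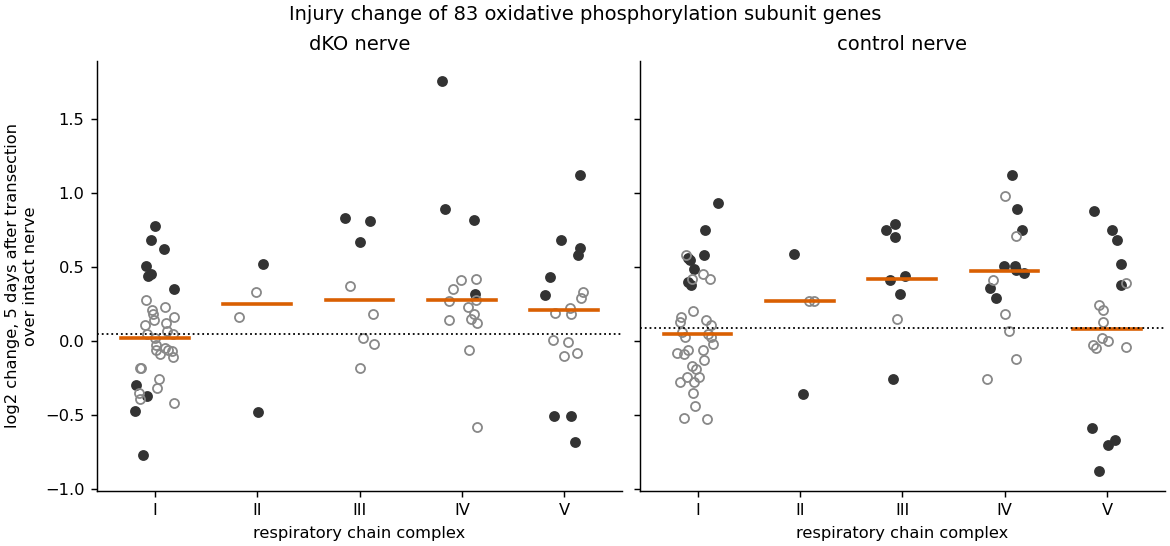
Each point is 1 of 83 subunit genes, placed by complex (x axis) and by its log2 change at 5 days over intact nerve (y axis), in dKO nerve (left) and control nerve (right). Filled points passed the test, open ones did not, orange bars are the complex medians and the dotted line is the median of all tested models. Complexes III and IV lie mostly above the dotted line. Complex V, grouped by the Atp5 prefix, holds risers and fallers, some of which are not subunits of the synthase itself.

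Left out one at a time, single libraries kept 18 to 24 of the 29 dKO calls and 26 to 33 of the 35 control calls, fewest without dKO intact replicate 2 and control intact replicate 2. Falling members in dKO nerve numbered 3 without dKO intact replicate 4, 4 without dKO injured replicate 3 and 5 without dKO intact replicate 2. Falling members in control nerve numbered 10 without control injured replicate 1 and 10 without control intact replicate 2. Cell markers differed between injured and intact nerve: 7 macrophage genes summed to 871 to 1260 CPM in injured and 161 to 268 CPM in intact dKO nerve, and to 869 to 1590 CPM in injured and 142 to 267 CPM in intact control nerve, and all 7 rose in both. The sum of 7 Schwann cell genes came to 3600 to 4400 CPM in injured and 60500 to 65900 CPM in intact dKO nerve, and to 2080 to 3040 CPM in injured and 56200 to 73500 CPM in intact control nerve. Gene by gene, 0 of the 7 rose and 7 fell in dKO nerve, with a median log2 change of -1.72. In control nerve 1 rose and 6 fell, with a median of -0.84. Summed over 5 fat genes, levels were 1510 to 2500 CPM in injured and 447 to 1190 CPM in intact dKO nerve. In control nerve they were 898 to 1670 CPM after injury and 120 to 1180 CPM intact, and none of the 5 genes passed the test. Stripping of the epineurium is labelled for intact nerve alone, so it cannot be told apart from injury. The part of these cell types in the subunit changes was not tested, and in whole nerve fewer cells of a type and less RNA per cell cannot be told apart.

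Summed over the genes of a complex, the level of complex III was 558, 566 and 662 CPM in injured dKO nerve, against 459, 483 and 438 CPM in intact dKO nerve. In control nerve it was 682, 641 and 570 CPM after injury, against 513, 419 and 482 CPM intact. Injured and intact libraries did not overlap in either genotype, and the same held for complex IV. Complex IV summed to 1035 ± 114 CPM in injured and 854 ± 52.5 CPM in intact dKO nerve, and to 1122 ± 68.5 CPM in injured and 851 ± 63.6 CPM in intact control nerve (SD, n = 3 each). The sums of complexes I, II and V overlapped between injured and intact nerve in both genotypes. Complex I, the largest by number of genes, summed to 1783 ± 156 CPM in injured and 1734 ± 43.4 CPM in intact dKO nerve, and to 1916 ± 122 CPM in injured and 1786 ± 82.7 CPM in intact control nerve (SD, n = 3 each).

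**Figure D2:**
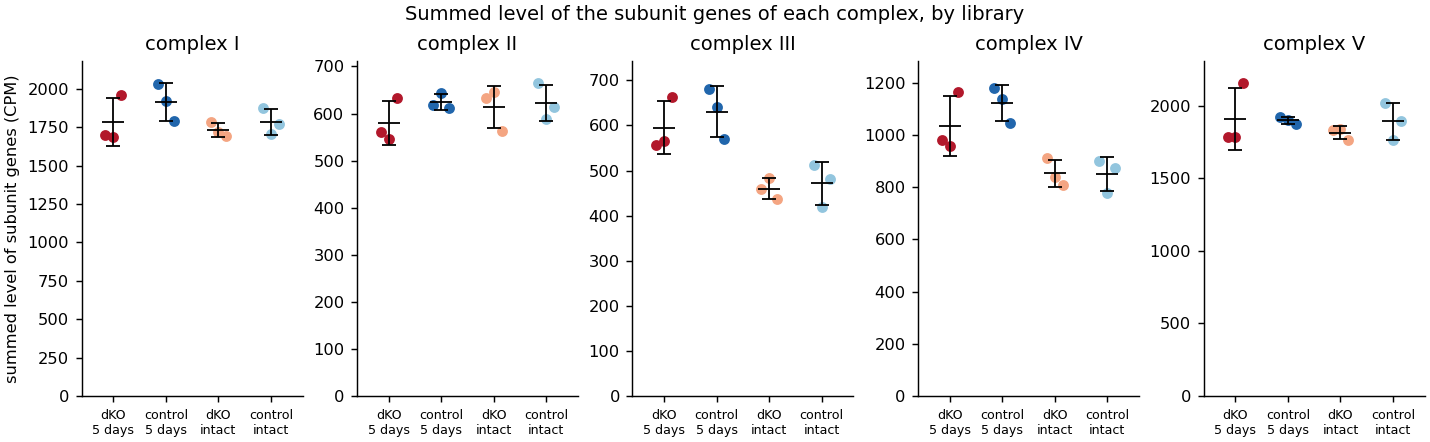
Summed level of the subunit genes of each complex in CPM (y axis, from 0), 1 panel a complex and 1 point a library, with the mean and SD of 3 libraries in black. Complexes III and IV separate injured from intact libraries in both genotypes, and complexes I, II and V do not.

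Complex I, the entry point for electrons from NADH, had medians near those of all models. Of its 37 genes 7 rose and 4 fell in dKO nerve, with a median of 0.02, and 8 rose and 0 fell in control nerve, with a median of 0.05. Of all tested models, 22.0% rose and 22.6% fell in dKO nerve, and 24.4% rose and 22.4% fell in control nerve. The rising share of complex I was thus near that background, and its falling share lay below it. Ndufc2, an accessory subunit of the membrane arm, had 37.4, 36.6 and 42.5 CPM in injured and 27.2, 25.3 and 23.5 CPM in intact dKO nerve. In control nerve it had 48.3, 46.6 and 39.2 CPM after injury and 23.9, 21.4 and 24.9 CPM intact. Every injured library lay above every intact one, and Ndufc2 rose by 0.62 (SE 0.12, adjusted p = 0.000798) in dKO and by 0.93 (SE 0.12, adjusted p = 1.68e-05) in control nerve.

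Ndufv1, the flavoprotein that takes electrons from NADH, had injury values of -0.26 (adjusted p = 0.146) in dKO and -0.28 (adjusted p = 0.119) in control nerve. Ndufa8, an accessory subunit, rose by 0.44 (SE 0.12, adjusted p = 0.00716) in dKO and by 0.49 (SE 0.12, adjusted p = 0.0031) in control nerve. Ndufa4, named for complex I but found as a subunit of complex IV, rose by 0.68 (SE 0.13, adjusted p = 0.000847) in dKO and by 0.75 (SE 0.13, adjusted p = 0.000296) in control nerve. With the library-set term, Ndufa8 and Ndufa4 had values of 0.24 and 0.39 in dKO nerve, with adjusted p of 0.474 and 0.264.

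The 4 complex I genes that fell in dKO nerve were the accessory subunits Ndufb4, Ndufa5, Ndufa13 and Ndufv3. Ndufb4 fell by 0.77 (SE 0.26, adjusted p = 0.0286) and Ndufa5 fell by 0.47 (SE 0.16, adjusted p = 0.0304). Ndufa13 fell by 0.37 (SE 0.14, adjusted p = 0.0432) and Ndufv3 fell by 0.30 (SE 0.10, adjusted p = 0.0300). In control nerve the same 4 had values of -0.44, -0.35, -0.09 and -0.19, none past the test, and none of the differences between genotypes passed it (adjusted p 0.528 to 0.870). These were weak calls: leaving out single libraries raised their adjusted p to as much as 0.0808 for Ndufb4 (without dKO intact replicate 4) and 0.116, 0.171 and 0.127 for Ndufa5, Ndufa13 and Ndufv3 (without dKO injured replicate 3). With the library-set term Ndufa5 stood at 0.11 (SE 0.24, adjusted p = 0.8). Of the rises in dKO nerve, that of Ndufb3 was lost without dKO injured replicate 4 (adjusted p = 0.12), that of Ndufs4 without dKO intact replicate 2 (adjusted p = 0.143) and that of Ndufa1 without dKO intact replicate 4 (adjusted p = 0.139), among others. In control nerve those of Ndufa3 (adjusted p = 0.0551) and Ndufs4 (adjusted p = 0.106) were lost without control intact replicate 1. Ndufb8, an accessory subunit of the membrane arm, rose by 0.38 (SE 0.10, adjusted p = 0.00436) in control nerve and had a value of 0.14 (adjusted p = 0.245) in dKO nerve.

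Complex II, the succinate dehydrogenase that also serves the citric acid cycle, split between its subunits. Sdha, the flavoprotein that oxidises succinate, had 234, 229 and 246 CPM in injured and 342, 350 and 296 CPM in intact dKO nerve. In control nerve it had 254, 255 and 262 CPM after injury and 357, 305 and 325 CPM intact. All injured libraries were below all intact ones, and Sdha fell by 0.48 (SE 0.10, adjusted p = 0.00125) in dKO and by 0.36 (SE 0.10, adjusted p = 0.00807) in control nerve.

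Sdhd, the small membrane anchor that helps bind quinone, went the other way. It had 59.5, 63.1 and 75.9 CPM in injured and 45.4, 48.1 and 44.4 CPM in intact dKO nerve. Control nerve had 61.4, 67.5 and 72.7 CPM after injury and 51.3, 37.7 and 44.6 CPM intact. Injured and intact libraries did not overlap, and Sdhd rose by 0.52 (SE 0.13, adjusted p = 0.00376) in dKO and by 0.59 (SE 0.13, adjusted p = 0.00133) in control nerve. Sdhb, the iron-sulfur subunit, had values of 0.33 (adjusted p = 0.0714) and 0.27 (adjusted p = 0.13). Sdhc, the other anchor, had values of 0.16 (adjusted p = 0.258) and 0.27 (adjusted p = 0.0554). Per kilobase of median transcript, Sdha had 81.5 CPM and Sdhd 53.7 CPM in injured dKO nerve, against 113 and 37.3 CPM in intact dKO nerve, and 88.7 and 54.6 CPM in injured control nerve, against 114 and 36.2 CPM in intact control nerve. With the library-set term the dKO values were -0.52 (adjusted p = 0.054) for Sdha and 0.35 (adjusted p = 0.325) for Sdhd.

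Both genes carry a match to the motif of NRF1, nuclear respiratory factor 1, a known activator of many respiratory genes. The motif searched was GCGCNTGCG on both strands, in RefSeq promoter windows of 250 bases before to 50 after the gene start (GRCm38.p6). The stretches of 100 bases around the match are shown to set the pair that moved in opposite directions side by side, with the matches, here all on the opposite strand, in capitals.
Sdha, chr13:74350284-74350383, minus strand: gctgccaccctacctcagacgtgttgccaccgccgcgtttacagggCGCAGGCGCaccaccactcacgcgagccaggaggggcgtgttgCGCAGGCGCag
Sdhd, chr9:50603874-50603973, minus strand: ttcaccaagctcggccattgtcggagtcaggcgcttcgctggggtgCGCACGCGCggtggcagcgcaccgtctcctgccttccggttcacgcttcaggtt
Sdha had 3 matches in its window, 2 of which are shown, and Sdhd had 1.

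**Figure D3:**
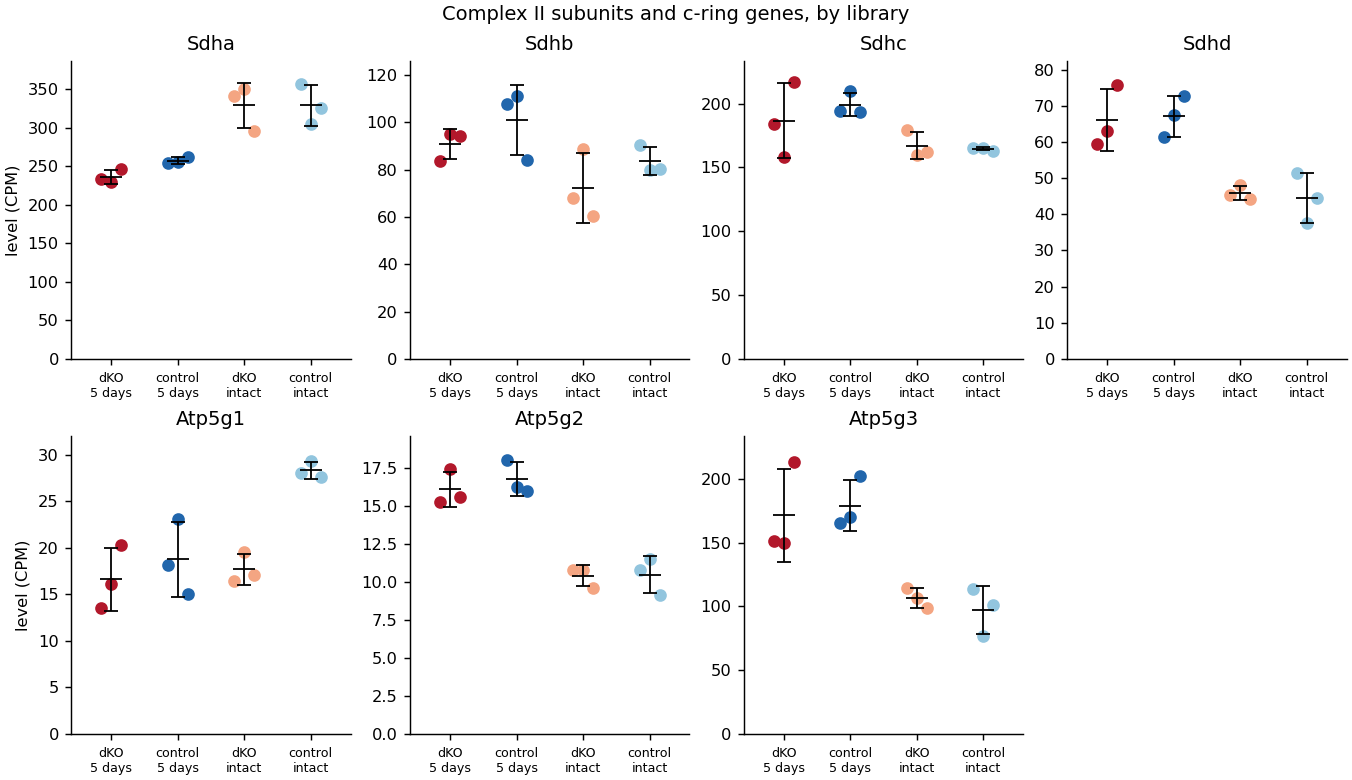
Level in CPM (y axis, from 0) of the 4 complex II genes (top) and the 3 genes for subunit c of complex V (bottom), with 1 point a library and the mean and SD of 3 libraries in black. Sdha is lower and Sdhd, Atp5g2 and Atp5g3 are higher in every injured than in every intact library, and Atp5g1 is highest in intact control nerve.

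In complex III, which passes electrons from quinol to cytochrome c, 3 of 8 genes rose and 0 fell in dKO nerve, with a median of 0.28, and 6 rose and 1 fell in control nerve, with a median of 0.42. Over all models 22.0% rose and 22.6% fell in dKO nerve, and 24.4% rose and 22.4% fell in control nerve. Uqcrfs1, the Rieske iron-sulfur protein and a catalytic subunit, had 60.3, 58.1 and 76.0 CPM in injured and 43.5, 43.6 and 35.2 CPM in intact dKO nerve. In control nerve it had 77.1, 64.7 and 60.6 CPM after injury and 45.6, 36.0 and 35.9 CPM intact. All injured libraries were above all intact ones, with changes of 0.67 (SE 0.14, adjusted p = 0.00173) in dKO and 0.79 (SE 0.14, adjusted p = 0.000402) in control nerve.

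Uqcrh, the hinge protein that docks cytochrome c1, rose by 0.81 (SE 0.14, adjusted p = 0.00026) in dKO and by 0.70 (SE 0.14, adjusted p = 0.00067) in control nerve. It had 154, 163 and 176 CPM in injured and 84.5, 101 and 95.8 CPM in intact dKO nerve. Uqcrq, a small accessory subunit, rose by 0.83 (SE 0.17, adjusted p = 0.00101) in dKO and by 0.44 (SE 0.17, adjusted p = 0.0427) in control nerve, the second lost in 5 of 6 fits that left out a library, with an adjusted p of 0.234 without control intact replicate 2. Uqcrb, which contacts the quinone site region, rose by 0.75 (SE 0.18, adjusted p = 0.00273) in control nerve and had a value of 0.37 (adjusted p = 0.0999) in dKO nerve. The 2 large core proteins diverged in control nerve. Uqcrc1 rose by 0.41 (SE 0.12, adjusted p = 0.0134), which was lost without control intact replicate 2 (adjusted p = 0.112), and Uqcrc2 fell by 0.26 (SE 0.10, adjusted p = 0.0388), which was lost without control injured replicate 1 (adjusted p = 0.117), control injured replicate 4 or control intact replicate 3. In dKO nerve their values were 0.18 (adjusted p = 0.252) and -0.18 (adjusted p = 0.152). Uqcr10, another small subunit, rose by 0.32 (SE 0.10, adjusted p = 0.0154) in control nerve and was lost without control intact replicate 2 (adjusted p = 0.152) or 1.

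Complex IV, cytochrome c oxidase, reduces oxygen, and its nuclear subunits surround a core encoded by mitochondrial DNA. Of 16 genes 4 rose and 0 fell in dKO nerve, with a median of 0.28, and 9 rose and 0 fell in control nerve, with a median of 0.47. Over all models 22.0% rose in dKO and 24.4% in control nerve. The rising share of complex IV was thus near that background in dKO nerve and above it in control nerve. Cox5a, which binds a thyroid hormone metabolite and helps regulate the enzyme, had 32.1, 35.2 and 46.0 CPM in injured and 22.7, 19.5 and 22.1 CPM in intact dKO nerve. Control nerve had 42.9, 43.7 and 37.1 CPM after injury and 26.6, 17.6 and 22.6 CPM intact. The groups did not overlap, and Cox5a rose by 0.82 (SE 0.16, adjusted p = 0.0011) in dKO and by 0.89 (SE 0.16, adjusted p = 0.000456) in control nerve.

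Cox6b1, on the intermembrane face between the monomers, rose by 0.75 (SE 0.12, adjusted p = 0.000151) in control nerve and had a value of 0.27 (adjusted p = 0.0857) in dKO nerve. The difference of these changes was -0.48 (SE 0.17, adjusted p = 0.171). Cox7a2, a small membrane subunit, rose by 0.51 (SE 0.11, adjusted p = 0.00112) in control nerve and had a value of 0.12 (adjusted p = 0.393) in dKO nerve, with a difference of -0.39 (SE 0.15, adjusted p = 0.202). Cox4i1, the widely used form of subunit IV and a site of regulation by ATP, rose by 0.32 (SE 0.12, adjusted p = 0.0452) in dKO and by 0.46 (SE 0.12, adjusted p = 0.00613) in control nerve. Without dKO injured replicate 4 its adjusted p in dKO nerve was 0.239, and without control intact replicate 2 it was 0.0517 in control nerve. Of the other control rises, Cox5b reached an adjusted p of 0.178 and Cox8a one of 0.232 without control intact replicate 2, Cox7b one of 0.248 without control injured replicate 1 and Cox7c one of 0.128 without control intact replicate 1.

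Several complex IV subunits have a form typical of one tissue, and in nerve the widely used form was the more abundant of each pair. Per kilobase of transcript, Cox4i1 had 332 CPM and Cox4i2, a form known from lung, 3.49 CPM in injured dKO nerve, against 338 and 3.09 CPM in injured control nerve, and 266 and 3.61 CPM in intact dKO nerve, against 245 and 3.38 CPM in intact control nerve. Cox7a1 and Cox8b, forms of heart and skeletal muscle, had 11.4 and 6.33 CPM per kilobase in intact control nerve, where Cox7a2 and Cox8a had 61.9 and 243 CPM per kilobase. Cox7a1 had injury values of -0.58 (adjusted p = 0.107) in dKO and -0.26 (adjusted p = 0.475) in control nerve. Cox8b had values of 0.42 (adjusted p = 0.693) and 0.71 (adjusted p = 0.474), and Cox4i2 had values of -0.06 (adjusted p = 0.932) and -0.12 (adjusted p = 0.854). Cox6a1, the widely used counterpart of Cox6a2, had 284 CPM per kilobase in injured and 250 CPM in intact dKO nerve, and 275 CPM in injured and 261 CPM in intact control nerve. Ndufa4l2, a hypoxia-inducible relative of Ndufa4, had injury values of -0.32 (adjusted p = 0.37) in dKO and -0.52 (adjusted p = 0.143) in control nerve. The muscle form Cox6a2, too low to be a member, had 0.0 to 1.04 CPM, highest in dKO injured replicate 4, where 15 skeletal muscle genes summed to 146 CPM, against 15.1 to 85.6 CPM in the other libraries. The part of muscle RNA in these values was not tested.

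Cox6b2, a form known from testis, rose in both genotypes. It had 13.1, 13.4 and 21.4 CPM in injured and 8.81, 10.6 and 6.31 CPM in intact dKO nerve, and 14.2, 16.4 and 11.9 CPM in injured and 6.99, 3.14 and 9.38 CPM in intact control nerve. The change was 0.89 (SE 0.33, adjusted p = 0.0429) in dKO and 1.12 (SE 0.33, adjusted p = 0.014) in control nerve. In dKO nerve the adjusted p reached 0.183 without dKO injured replicate 4, and in control nerve it was 0.0509 without control injured replicate 2. Cox7b2, close to undetected, had 1.48, 1.31 and 0.289 CPM in injured and 0.345, 0.335 and 0.238 CPM in intact dKO nerve, and its call there (1.76, SE 0.61, adjusted p = 0.0301) was lost in 5 of 6 fits without single libraries, with adjusted p up to 0.135. Cox7a2l, which joins complexes III and IV in a supercomplex, had values of 0.41 in both (adjusted p 0.0598 in dKO and 0.0582 in control nerve).

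Complex V is the ATP synthase, and the 18 genes grouped here by the Atp5 prefix held both risers and fallers. In dKO nerve 6 rose and 3 fell, with a median of 0.21, and 5 rose and 4 fell in control nerve, with a median of 0.08. Over all models 22.0% rose and 22.6% fell in dKO nerve, and 24.4% rose and 22.4% fell in control nerve. Both shares of complex V in control nerve were thus near that background. The fallers Atp5s and Atp5sl are not subunits of the synthase itself, and the riser Atp5l2 is annotated as a processed pseudogene. The other fallers were Atp5o in both genotypes and Atp5g1 in control nerve alone. None of the 5 subunits of the catalytic F1 head passed the test in either genotype. Atp5b, the catalytic beta subunit and among the most abundant of the members, had 511, 521 and 615 CPM in injured and 534, 571 and 531 CPM in intact dKO nerve, a change of 0.01 (SE 0.11, adjusted p = 0.949). Control nerve had 546, 546 and 549 CPM after injury and 631, 499 and 541 CPM intact, a change of -0.03 (SE 0.11, adjusted p = 0.867). Among the stalk and membrane subunits, Atp5f1, subunit b of the peripheral stalk, rose by 0.43 (SE 0.10, adjusted p = 0.00416) in dKO and by 0.52 (SE 0.10, adjusted p = 0.000804) in control nerve. Atp5o, which links that stalk to the head, fell by 0.51 (SE 0.11, adjusted p = 0.00139) in dKO and by 0.67 (SE 0.11, adjusted p = 0.000111) in control nerve. Atp5o had 178, 182 and 200 CPM in injured and 250, 261 and 284 CPM in intact dKO nerve, but its symbol fits 2 overlapping genes in GENCODE M21, so its reads may be shared. Atp5j, subunit F6 of the stalk, rose by 0.31 (SE 0.09, adjusted p = 0.0109) in dKO nerve and had a value of -0.05 (adjusted p = 0.697) in control nerve, with a difference of 0.36 (SE 0.13, adjusted p = 0.161). The dKO call was lost without dKO intact replicate 2 (adjusted p = 0.0764).

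Some members carry the Atp5 prefix without being subunits of the synthase itself. Atp5s, a coupling factor, fell by 0.51 (SE 0.19, adjusted p = 0.0371) in dKO and by 0.70 (SE 0.19, adjusted p = 0.00669) in control nerve, the dKO call being lost without dKO injured replicate 3 or 4 or dKO intact replicate 2 or 4 (adjusted p up to 0.0966). Atp5sl, which in human cells acts in assembly of complex I, fell by 0.68 (SE 0.16, adjusted p = 0.00303) in dKO and by 0.88 (SE 0.16, adjusted p = 0.000359) in control nerve. It had 21.5, 20.7 and 18.8 CPM in injured and 30.1, 33.8 and 33.9 CPM in intact dKO nerve. Atp5l, subunit g of the membrane part, rose by 0.58 (SE 0.21, adjusted p = 0.038) in dKO nerve, which was lost without dKO intact replicate 2 (adjusted p = 0.146), and Atp5j2, subunit f, rose by 0.38 (SE 0.10, adjusted p = 0.00585) in control nerve, which was lost without control intact replicate 2 (adjusted p = 0.0618). Atp5l2 is annotated as a processed pseudogene, so its reads may be shared with a related gene. It rose by 1.12 (SE 0.27, adjusted p = 0.00396) in dKO and by 0.75 (SE 0.27, adjusted p = 0.0323) in control nerve, the second lost without control intact replicate 2 (adjusted p = 0.129) and 3 other libraries.

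The c ring, the rotor through which protons pass, is made of 1 mature protein that 3 genes encode. Atp5g3, the most abundant of them, had 151, 149 and 213 CPM in injured and 115, 107 and 98.8 CPM in intact dKO nerve, and 165, 170 and 202 CPM in injured and 113, 76.4 and 101 CPM in intact control nerve. Atp5g2 had 15.3, 17.4 and 15.6 CPM in injured and 10.8, 10.8 and 9.64 CPM in intact dKO nerve, and 18.1, 16.3 and 16.0 CPM in injured and 10.8, 11.5 and 9.17 CPM in intact control nerve. Neither gene overlapped between injured and intact nerve: Atp5g3 rose by 0.68 (SE 0.16, adjusted p = 0.00329) in dKO and by 0.88 (SE 0.16, adjusted p = 0.000402) in control nerve, and Atp5g2 by 0.63 (SE 0.15, adjusted p = 0.00312) and 0.68 (SE 0.15, adjusted p = 0.00155).

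Atp5g1 did not follow them. It had 13.5, 16.1 and 20.3 CPM in injured and 16.5, 19.6 and 17.0 CPM in intact dKO nerve, which overlapped, and 18.2, 23.1 and 15.1 CPM in injured and 28.1, 29.4 and 27.7 CPM in intact control nerve, which did not. It fell by 0.59 (SE 0.17, adjusted p = 0.0118) in control nerve and had a value of -0.10 (SE 0.18, adjusted p = 0.687) in dKO nerve. The difference of the changes, 0.50 (SE 0.25, adjusted p = 0.352), did not pass the test, and the fall in control nerve was lost without control injured replicate 4 (adjusted p = 0.0528). Per kilobase of transcript, Atp5g3 had 239 CPM and Atp5g1 6.21 CPM in injured dKO nerve, against 148 and 6.61 CPM in intact dKO nerve, and 250 and 7.02 CPM in injured control nerve, against 135 and 10.6 CPM in intact control nerve. The RefSeq promoter windows of the 3 genes are printed because 1 protein is drawn from 3 promoters whose genes moved apart. Capitals mark the NRF1 motif and the E-box CACGTG, the core to which TFEB and TFE3 bind.
Atp5g1, chr11:96075582-96075881, minus strand: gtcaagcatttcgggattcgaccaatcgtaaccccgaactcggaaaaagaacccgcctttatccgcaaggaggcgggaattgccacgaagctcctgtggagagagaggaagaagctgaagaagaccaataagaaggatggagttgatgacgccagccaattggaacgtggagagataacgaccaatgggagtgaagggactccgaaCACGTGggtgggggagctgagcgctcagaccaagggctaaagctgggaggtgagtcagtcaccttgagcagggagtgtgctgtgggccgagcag
Atp5g2, chr15:102670998-102671297, minus strand: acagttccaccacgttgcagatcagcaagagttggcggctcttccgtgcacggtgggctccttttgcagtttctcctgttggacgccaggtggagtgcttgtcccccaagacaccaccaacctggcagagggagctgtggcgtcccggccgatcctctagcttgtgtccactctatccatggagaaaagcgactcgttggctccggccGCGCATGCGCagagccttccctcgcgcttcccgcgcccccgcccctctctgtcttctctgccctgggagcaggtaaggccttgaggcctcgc
Atp5g3, chr2:73911277-73911576, minus strand: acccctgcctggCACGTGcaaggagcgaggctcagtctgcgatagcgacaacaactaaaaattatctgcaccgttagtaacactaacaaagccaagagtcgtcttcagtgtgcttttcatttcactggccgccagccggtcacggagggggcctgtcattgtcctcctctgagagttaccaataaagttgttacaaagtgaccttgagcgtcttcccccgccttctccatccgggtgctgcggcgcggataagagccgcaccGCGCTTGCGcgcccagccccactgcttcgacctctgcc
Atp5g1 held an E-box and no NRF1 match in this window, Atp5g2 held overlapping NRF1 matches on both strands, and Atp5g3 held 1 of each motif.

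No member passed the test between genotypes in intact nerve. Of the 83 members 0 were higher and 0 lower in intact dKO than in intact control nerve, and of all models 0.0% were higher and 0.00447% lower (edgeR). At an unadjusted p under 0.05, 0 members were higher and 3 lower, with 3.29% and 2.52% of all models, and every alternative fit also called 0. The median member differed by -0.04, beside -0.01 for all models. The lowest unadjusted p belonged to Atp5g1, whose levels given above did not overlap between intact dKO and intact control nerve, a difference of -0.68 (SE 0.17, adjusted p = 0.841). Over the alternatives its adjusted p ranged from 0.126 with DESeq2 to 1.0 without dKO intact replicate 2 or control intact replicate 2.

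At 5 days after injury 0 members were higher and 4 lower in dKO than in control nerve, with 3.12% and 8.97% of all models called, so that 4.82% of the members were lower. The median member differed by -0.08 and the median model by -0.02. Cox7a2 had 41.3, 41.4 and 43.8 CPM in injured dKO nerve, against 56.7, 55.6 and 61.7 CPM in injured control nerve, and was lower by 0.46 on the log2 scale (-0.46, SE 0.11, adjusted p = 0.0108). The libraries did not overlap, and control replicate 4, of the second library set, was the highest of the controls.

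Ndufa3, an accessory subunit of complex I, had 29.2, 29.5 and 26.4 CPM in injured dKO nerve, against 48.1, 40.5 and 37.6 CPM in injured control nerve (-0.57, SE 0.15, adjusted p = 0.0231). Ndufc1, a small membrane-arm subunit, had 6.43, 7.17 and 7.97 CPM, against 13.2, 14.4 and 9.24 CPM in injured control nerve (-0.78, SE 0.20, adjusted p = 0.0231). Ndufs6, a zinc-binding subunit of the peripheral arm, had 14.2, 13.6 and 14.9 CPM, against 32.1, 22.0 and 14.6 CPM in injured control nerve (-0.69, SE 0.21, adjusted p = 0.0469). For these 3 genes control replicate 4 was the lowest control, and for Ndufs6 it lay among the dKO libraries. In intact nerve the 4 genes had values of -0.07, 0.04, -0.34 and -0.19 for Cox7a2, Ndufa3, Ndufc1 and Ndufs6, with adjusted p of 0.951, 0.984, 0.882 and 0.921.

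**Figure D4:**
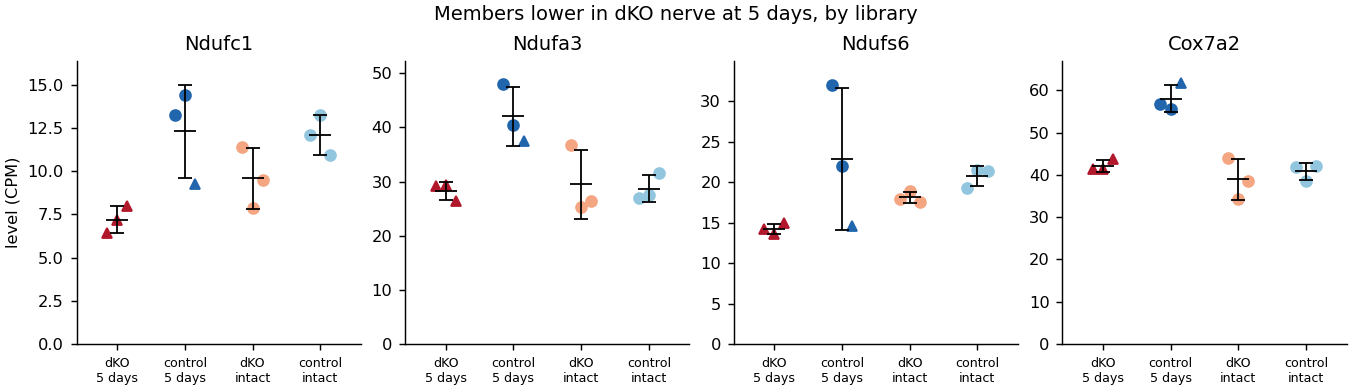
Level in CPM (y axis, from 0) of the 4 members called lower in dKO than in control nerve at 5 days, with 1 point a library and the mean and SD of 3 libraries in black. Triangles mark the second library set, to which all injured dKO libraries and 1 injured control library belong, and for Ndufs6 that control lies among the dKO libraries.

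With the library-set term 0 members were higher and 0 lower (0.648% and 1.65% of all models), Cox7a2 having -0.55 (SE 0.14, adjusted p = 0.0671), Ndufa3 -0.41 (adjusted p = 0.46), Ndufc1 -0.37 (adjusted p = 0.648) and Ndufs6 -0.04 (adjusted p = 0.978). Within the second set, the 3 dKO libraries less control replicate 4 gave a median of 0.02 over the members, 35 of 83 being lower in dKO, a comparison with 1 control and no test. Leaving out a library changed the number of lower members to 0 without dKO injured replicate 3, 1 without dKO injured replicate 2 or control injured replicate 1, 2 without control injured replicate 2 and 9 without control injured replicate 4. Upper-quartile scaling gave 1 higher member, Atp5j, and 2 lower, with 4.8% and 6.01% of all models, and the median of all models then stood at 0.09 and that of the members at 0.03. DESeq2 also called Atp5j higher (0.27, adjusted p = 0.0356) and, besides the 4, Uqcrb lower (-0.50, adjusted p = 0.0497).

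No member passed the test of the difference between the injury changes of the genotypes: 0 were called higher and 0 lower in dKO, beside 0.737% and 2.17% of all models (edgeR), and every alternative fit called 0. At an unadjusted p under 0.05, 1 was higher (Atp5j) and 4 were lower (Ndufa3, Cox6b1, Cox7a2 and Uqcr10), with 5.11% and 10.7% of all models. The median difference was -0.05 over the members and -0.03 over all models. By complex the medians were -0.05 for complex I, -0.09 for complex II, -0.13 for complex III, -0.14 for complex IV and 0.18 for complex V. Complex II has 4 genes and complex III 8, so these medians rest on few values.

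Other genes of the pathway were counted from lists chosen with earlier results of these data known. The background for these lists, here and below, is that 22.0% of all models rose and 22.6% fell in dKO nerve. In control nerve it is 24.4% and 22.4%. Of 46 assembly factors, 3 rose and 5 fell in dKO nerve and 7 rose and 4 fell in control nerve, with medians of 0.07 and 0.06. These shares all lay below the background. Sco2, a copper chaperone for complex IV, rose by 0.51 (SE 0.16, adjusted p = 0.0162) in dKO and by 1.40 (SE 0.16, adjusted p = 5.19e-06) in control nerve, and Surf1, another complex IV factor, fell by 0.64 (SE 0.09, adjusted p = 7.05e-05) and by 0.59 (SE 0.09, adjusted p = 0.00012). At 5 days 3 of the 46 assembly factors were lower in dKO nerve, a smaller share than the 8.97% of all models: Sco2 (-0.69, SE 0.16, adjusted p = 0.0102), Coa3 (-0.57, SE 0.16, adjusted p = 0.036) and Fam36a, also called Cox20 (-0.41, SE 0.10, adjusted p = 0.0154). With the library-set term their values were -0.37 (adjusted p = 0.479), -0.38 (adjusted p = 0.549) and -0.37 (adjusted p = 0.267), so that none passed the test. Other lists also held genes lower in dKO nerve at 5 days. Membrane transport and import had 2 of 15, Hspd1 and Vdac2, and the mitochondrial ribosome had 4 of 76. The cytosolic ribosome had 5 of 80, and 0 were higher in each of these lists. The proteasome had 1 of 38 lower and 1 higher. A list of 7 genes held electron carriers and supercomplex factors, of which 2 rose and 1 fell in dKO and 1 rose and 1 fell in control nerve. Cycs, which is cytochrome c itself, rose by 0.64 (SE 0.17, adjusted p = 0.00825) in dKO and by 0.85 (SE 0.17, adjusted p = 0.000957) in control nerve. Etfa rose by 0.61 (SE 0.17, adjusted p = 0.00998) in dKO nerve and had a value of 0.02 (adjusted p = 0.941) in control nerve. Cyc1, the cytochrome c1 of complex III that the symbol pattern does not match, had values of 0.12 (adjusted p = 0.549) and -0.13 (adjusted p = 0.544). Higd2a, which helps form supercomplexes, fell by 0.38 (SE 0.12, adjusted p = 0.0209) in dKO and by 0.75 (SE 0.12, adjusted p = 0.000167) in control nerve. With the library-set term Higd2a stood at 0.05 (SE 0.17, adjusted p = 0.875) in dKO nerve.

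Of 15 genes of membrane transport and import, 7 rose and 4 fell in dKO and 8 rose and 4 fell in control nerve. The phosphate carrier Slc25a3, which feeds the ATP synthase, rose by 0.61 (SE 0.13, adjusted p = 0.00128) in dKO and by 0.95 (SE 0.13, adjusted p = 2.45e-05) in control nerve. The ADP/ATP carrier Slc25a5 rose by 0.70 (SE 0.19, adjusted p = 0.00761) and by 0.63 (SE 0.19, adjusted p = 0.012). Slc25a4, another ADP/ATP carrier, went the other way. It had values of -0.17 (adjusted p = 0.188) in dKO and -0.38 (SE 0.1, adjusted p = 0.00684) in control nerve, the second called lower. Vdac2, Tomm20 and Timm44 fell in both genotypes, and Phb fell in dKO nerve alone. Of 15 citric acid cycle genes, 1 rose and 4 fell in dKO and 1 rose and 3 fell in control nerve, with medians of 0.01 and -0.01. Of 13 regulators of mitochondrial biogenesis, 1 rose and 0 fell in dKO and 1 rose and 2 fell in control nerve. Esrrg, a nuclear receptor, rose in both, by 1.83 (SE 0.38, adjusted p = 0.00133) and 1.35 (SE 0.38, adjusted p = 0.00948), and Ppargc1a, a coactivator of respiratory genes, had values of 0.35 (adjusted p = 0.11) in dKO and -0.13 (adjusted p = 0.571) in control nerve.

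The ribosomal and proteasomal genes, which like the members encode subunits of large complexes, had larger medians. Of 76 mitochondrial ribosome genes, 17 rose and 4 fell in dKO nerve, with a median of 0.20, and 34 rose and 4 fell in control nerve, with a median of 0.36. Their rising share was near the 22.0% of all models in dKO nerve and above the 24.4% in control nerve. Of 80 cytosolic ribosome genes, 52 rose and 0 fell in dKO nerve, with a median of 0.50, and 64 rose and 0 fell in control nerve, with a median of 0.72. Of 38 proteasome genes, 21 rose and 1 fell in dKO nerve, with a median of 0.34, and 22 rose and 1 fell in control nerve, with a median of 0.36.

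The members are short transcripts, and short transcripts as a whole were shifted by injury. The median transcript length was 737 bases over 82 members (312 to 2900) and 2627 bases over 16618 protein-coding models. Members of 500 to 750 bases (n = 30) had median injury changes of 0.18 in dKO and 0.33 in control nerve, against 0.22 and 0.32 for all protein-coding models of that length. Members of 750 to 1000 bases (n = 11) lay lower, with medians of 0.05 in dKO and 0.06 in control nerve, against 0.30 and 0.33 for all models of that length. So did those of 1500 to 2500 bases (n = 12), with -0.05 in dKO and 0.04 in control nerve, against 0.07 and 0.14. At 1000 to 1500 bases (n = 11) the members had 0.22 in dKO and 0.27 in control nerve, against 0.18 and 0.25, and at 2500 to 4000 bases (n = 4) they had -0.06 and -0.30, against -0.04 and 0.01. The shortest members, up to 500 bases (n = 13), had medians of 0.29 in dKO and 0.55 in control nerve, against 0.10 and 0.28 for all 174 models of that length. Whether transcript length itself has a part in the change was not tested.

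**Figure D5:**
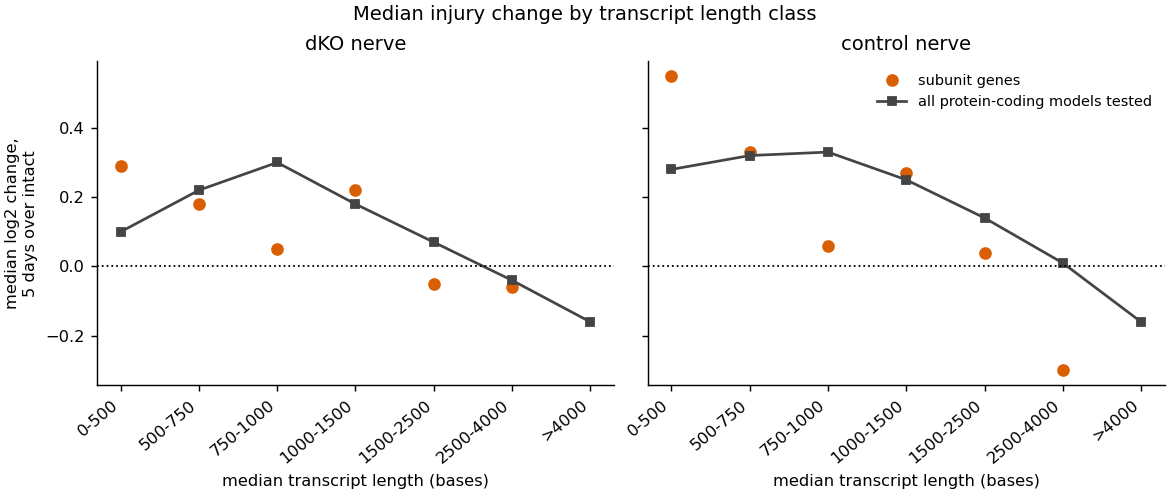
Median log2 injury change (y axis) by class of median transcript length in bases (x axis), for dKO nerve (left) and control nerve (right). Orange points are subunit genes, dark squares all protein-coding models tested, and no subunit gene is longer than 4000 bases. The medians of all models fall with length above 1000 bases in both genotypes.

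Promoter windows were found in RefSeq for 69 of the 83 members. The NRF1 motif was in 24 of them (34.8%), against 7.12% of the windows of 27025 genes, counting both strands. The shares by complex were 9 of 32 in complex I, 2 of 3 in complex II, 3 of 5 in complex III, 1 of 13 in complex IV and 9 of 16 in complex V. By response it was in 5 of 17 members that rose in dKO nerve, 5 of 8 that fell and 14 of 44 with no call, and in 6 of 24 that rose in control nerve, 3 of 5 that fell and 15 of 40 with no call. The YY1 motif AAGATGGCG, on either strand, was in 8 members (11.6%, against 1.64% of all genes), and the ETS motif CCGGAAGT, on either strand, in 5 (7.25%, against 4.31%). The palindrome TCACGTGA, the CLEAR motif through which TFEB and TFE3 act on lysosomal genes, was in 1 member, Ndufa7 (1.45%, against 1.12%), and the shorter E-box CACGTG that it contains in 7 (10.1%, against 8.09%). The stretch around the motif in Ndufa7 is printed with the motif in capitals because it is the single such match.
Ndufa7, chr17:33824453-33824552, plus strand: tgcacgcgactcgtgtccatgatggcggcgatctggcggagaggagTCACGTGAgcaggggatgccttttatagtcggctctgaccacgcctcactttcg
Ndufa7, an accessory subunit of complex I, had 29.7, 35.7 and 27.9 CPM in injured dKO and 35.4, 38.2 and 24.6 CPM in injured control nerve (-0.08, SE 0.15, adjusted p = 0.791), and 31.1, 35.9 and 30.6 CPM in intact dKO and 34.1, 33.2 and 35.0 CPM in intact control nerve (-0.07, SE 0.15, adjusted p = 0.964). A motif match describes these letters and is no evidence of binding.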

How the data were processed

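RNA was made into 12 polyA libraries, in 4 groups of 3, with the Ion Total RNA-Seq Kit v2, per the labels' protocols. The authors deposited raw counts per gene model, used for every test, and the same counts divided by 1 size factor per library, a normalised signal, used as an alternative. DESeq2, R 4.2.1 and mm10 are named in the submitters' processing notes, while neither labels nor file headers state an aligner, a counting rule, a strand setting or an annotation. Unstranded counting, if used, would merge a subunit gene with an antisense or overlapping one. Symbols were matched to GENCODE M21 for transcript length (82 of 83 members with 1 gene) and to RefSeq for promoters.

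Counts were fitted with edgeR 4.0.16 (R 4.3.3): TMM scaling, filterByExpr with a minimum count of 10 (22384 of 38087 models kept), robust quasi-likelihood F-tests, all 12 libraries, 1 mean per group, Benjamini-Hochberg adjustment over all tested models, 0.05 as threshold. Standard errors are the log2 change divided by the square root of F. limma 3.58.1 and DESeq2 1.42.0 served as alternatives. No library was dropped or imputed, and replicates differed beyond sampling noise. The procedure was tested on simulated data. The members and lists were chosen with earlier results of these data known. Kinases and binding proteins caught by the ribosome and proteasome symbol prefixes were left out of those lists, a change made after seeing the data. Alternatives were other scalings, filters, tools and thresholds, the compared groups alone, a library-set term, replicate blocks and leaving out single libraries. Members were named by a rule: the up to 4 called members with the smallest p in each complex and comparison, all of complex II, all isoform pairs, and calls against the direction of most of their complex. Members in other sentences were chosen after their values were seen. Subunits encoded in mitochondrial DNA were not analysed here. A result on 1 member is not reported here.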

Additional observations from a re-analysis of the deposited data

Results flagged for a closer look

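Among the pathway lists, 1 gene had injury changes that differed between the genotypes by the test of the difference itself. It was 1 of 46 assembly factors, while 0.737% of all tested models were called higher and 2.17% lower in that test. Sco2, a copper chaperone for complex IV, rose by 0.51 in dKO and by 1.40 in control nerve, a difference of -0.88 (SE 0.22, edgeR adjusted p = 0.0481). The call was lost with the library-set term (-0.56, adjusted p = 0.479), DESeq2 size factors (adjusted p = 0.0624), limma-voom (0.0606), limma on the authors' values (0.0702), upper-quartile scaling (0.0686) and the replicate blocks by number (0.0904) and by number within genotype (0.0682). It held with DESeq2 (0.0157), without a low-count filter (0.0347) and with a stricter one (0.0457). With single libraries left out, the adjusted p ranged from 0.0127 without control injured replicate 4 to 0.139 without dKO injured replicate 3. Only the fits without control injured replicate 4 or dKO injured replicate 4 (adjusted p = 0.037) kept it, of 12 that each left out 1 library.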

How the results depend on the processing

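Counts of called members moved by more than 1.5 times as follows. In injured dKO nerve, 21 members rose, against 11 with the library-set term, 38 with upper-quartile scaling and 13 at a threshold of 0.01. The 8 that fell became 0 with the set term, 3 with upper-quartile scaling, 3 at a threshold of 0.01, 5 with a replicate block by number and 5 with a replicate block by number within genotype. In control nerve, the 6 that fell became 10 with limma on the authors' normalised values and 3 with the block within genotype. At 5 days, the 4 lower members became 2 when only the compared groups were fitted, 2 with upper-quartile scaling, and 0 with the set term, with the replicate block by number and at a threshold of 0.01. The 0 higher members became 1 with DESeq2 and 1 with upper-quartile scaling. In their deviations from group means, same-numbered libraries correlated at -0.213 to 0.118. With 3 libraries a group this cannot tell whether 2 of them came from the same mouse, and the labels do not say. Leaving out single libraries gave 20 to 34 rising and 4 to 10 falling members in control nerve, 14 to 19 rising and 3 to 6 falling in dKO nerve, and 0 to 9 lower at 5 days. In intact nerve and for the difference of the injury changes, every alternative run gave 0 calls. Under the set term, the dKO injury values of Ndufa5 (0.11) and Higd2a (0.05) changed sign, and the cause was not tested. The median injury change of the members in dKO nerve was 0.31 with the set term and 0.30 with upper-quartile scaling. Upper-quartile scaling also raised the median of all models there, as given above. All injured and no intact dKO libraries lie in the second set, so set and injury cannot be told apart in dKO nerve except through the control libraries. Of the members, 80 of 83 averaged at least 100 counts, and each group had 3 libraries.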
